A study of Arabidopsis thaliana with 12 samples.

Results

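Aquaporins are membrane channels of the major intrinsic protein family, and the 35 aquaporin genes of Arabidopsis thaliana were taken here as the rows carrying their locus identifiers, out of 33602 genes in each table. They comprised 13 plasma membrane intrinsic proteins (PIPs), 10 tonoplast intrinsic proteins (TIPs), 9 NOD26-like intrinsic proteins (NIPs) and 3 small basic intrinsic proteins (SIPs). Members are written with a hyphen, as in protein databases, where plant literature uses a semicolon, so PIP2-1 stands for PIP2;1. Members were taken by locus identifier, whatever their level.

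Aquaporin polypeptides assemble into tetramers in which each subunit has its own pore, lined by a pair of short loops that usually carry the residues asparagine, proline and alanine, the NPA boxes. PIPs let water, and in some cases hydrogen peroxide or carbon dioxide, cross the plasma membrane, while TIPs do the same for the vacuole, whose volume sets much of the turgor of a plant cell. NIPs carry small neutral solutes such as boric acid or arsenous acid, and SIPs reside mainly in the endoplasmic reticulum. Water channel activity is also set after transcription, through phosphorylation, trafficking and degradation, which transcript counts do not measure.

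Poly(A) RNA of whole seedlings was sequenced in 12 libraries, 3 for each combination of genotype and treatment, and the series' design text counts them as independent experiments. The ahl10-1 line carries the T-DNA insertion Salk_073165 in AHL10, which encodes an AT-hook motif nuclear localized protein, and it was compared with wild type Col-0 (WT). In the ahl10-1 stress and WT stress groups, seedlings were moved at day 7 to agar holding the osmolyte polyethylene glycol at a water potential of -0.7 MPa. In the ahl10-1 control and WT control groups the medium stayed at -0.25 MPa. All 4 groups were grown under continuous light without added sugar and were harvested 96 h after transfer, so a difference between stress and control is that of a sustained exposure.

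Reads assigned to genes ranged from 57996104 to 68555138 per library. AHL10 itself had 16.997, 14.4 and 14.9 RPKM, which is reads scaled to gene length and library size, in ahl10-1 stress, 13.2, 11.5 and 11.0 RPKM in ahl10-1 control, 32.5, 32.5 and 33.7 RPKM in WT stress and 23.9, 24.1 and 23.7 RPKM in WT control. All ahl10-1 libraries lay below all WT libraries, but AHL10 reads were not absent from this single insertion line. Where along the gene those reads lie cannot be seen from a total, and a natural antisense gene is annotated over its start, while strand use in counting is unstated. On the first principal component, with 64.0% of the variance, stress and control libraries were apart. On the second, with 10.1%, ahl10-1 control replicate 1 lay beside WT control replicates 1 and 3. The 3 libraries of a group differed by more than counting noise in every pair (chi-square of 16.2 to 109.5 per degree of freedom). That comparison cannot tell separate biological samples from separate preparations of the same RNA. Each library was counted as its own sample because the design text names independent experiments.

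Levels are given as RPKM computed from the deposited reads and gene lengths with TMM scaling, a factor per library that aligns the bulk of genes, and they may be compared between genes because they are per length. Differences are log2 fold changes with their standard error (SE) from edgeR's quasi-likelihood test over all 12 libraries. Benjamini-Hochberg adjustment ran over the 22604 tested genes, and a call is an adjusted p under 0.05. These p-values rest on the spread between libraries within groups, estimated over the 4 groups together and moderated across genes.

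The NPA boxes differ among members, so the coding stretch around both boxes is printed for the member of each that the results below turn on or that was most abundant. The stretches are 36 bases, read 5′ to 3′ from the longest annotated coding sequence in RefSeq (assembly TAIR10.1), with the 9 bases of the box in capitals. PIP2-5 (AT3G54820) lies at chr3:20301759-20304309 on the plus strand, TIP2-1 (AT3G16240) at chr3:5505360-5507050 on the plus strand, NIP5-1 (AT4G10380) at chr4:6431161-6435396 on the minus strand and SIP1-1 (AT3G04090) at chr3:1071984-1074244 on the minus strand.
PIP2-5 first box: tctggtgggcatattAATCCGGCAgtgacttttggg
PIP2-5 second box: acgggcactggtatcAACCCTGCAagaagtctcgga
TIP2-1 first box: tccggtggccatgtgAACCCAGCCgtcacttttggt
TIP2-1 second box: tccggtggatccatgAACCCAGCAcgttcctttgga
NIP5-1 first box: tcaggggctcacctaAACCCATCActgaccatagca
NIP5-1 second box: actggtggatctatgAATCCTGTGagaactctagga
SIP1-1 first box: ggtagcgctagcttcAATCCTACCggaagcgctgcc
SIP1-1 second box: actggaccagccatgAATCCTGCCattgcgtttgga
PIP2-5 and TIP2-1 have an alanine codon in both boxes, whereas NIP5-1 has TCA and GTG there and SIP1-1 has ACC in its first box. In 30 of the 35 coding sequences the first match to an asparagine and a proline codon, followed by a codon for alanine, serine, threonine, valine, leucine or cysteine, ended in an alanine codon. The exceptions were NIP5-1, NIP7-1 and all 3 SIPs, and the first match of NIP7-1 lies well before its other matches, of which the next ends in TCC. Between subfamily members the coding sequences were from 70.0% to 94.8% identical among PIPs, from 55.0% to 81.8% among TIPs, from 55.8% to 88.2% among NIPs and from 55.9% to 76.8% among SIPs.

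A single pair exceeded 90% identity. PIP2-2 and PIP2-3, neighbours on chromosome 2, were 94.8% identical over their aligned coding bases, and the 90 coding bases around their first NPA box (from coding base 268 of PIP2-3) are printed once because both genes hold them without a difference.
PIP2-2 and PIP2-3: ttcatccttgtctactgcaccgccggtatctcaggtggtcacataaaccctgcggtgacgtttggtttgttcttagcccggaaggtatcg
Reads from such a stretch can fall to either gene, so the separate levels of this pair are uncertain. The deposited multi-mapped share was between 0.247% and 0.521% of their reads, and neither gene was called in any comparison. PIP2-2 averaged 153 ± 7.89 RPKM in ahl10-1 stress, 165 ± 13.2 RPKM in ahl10-1 control, 135 ± 13.7 RPKM in WT stress and 166 ± 30.9 RPKM in WT control (SD, n = 3 each), and PIP2-3 averaged 28.4 ± 2.88 RPKM in ahl10-1 stress, 28.02 ± 3.30 RPKM in ahl10-1 control, 25.4 ± 1.67 RPKM in WT stress and 27.3 ± 4.15 RPKM in WT control.

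Of the 35 members, 32 passed the filter on low counts. NIP4-1 had 0 reads in all 12 libraries, TIP5-1 at most 2 reads and TIP1-3 at most 4 reads in any library. These 3 are members known from pollen, and the pollen markers VGD1, VGDH1 and PPME1 had at most 3, 4 and 2 reads in any library. A count of 0 allows up to 3 reads in that library, so expression of NIP4-1 below that was not detectable. Aquaporins took from 0.504% to 0.744% of the reads in genes.

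A few abundant channels held most of the aquaporin transcripts, and their order differed between stress and control. In WT stress PIP1-2 came first with 788 ± 23.2 RPKM, TIP1-2 next with 536 ± 23.0 RPKM and TIP2-1 sixth with 243 ± 25.5 RPKM (SD, n = 3). In WT control the order was TIP1-2 with 827 ± 39.6 RPKM, PIP1-2 with 727 ± 21.5, TIP2-1 with 653 ± 16.4, PIP2-1 with 553 ± 26.997, TIP1-1 with 425 ± 34.7 and PIP2-7 with 407 ± 19.4 RPKM. From TIP1-2 down to TIP1-1 in WT control no gene's libraries overlapped those of the next gene, whereas TIP1-1 and PIP2-7 overlapped. The same exchange of first place held in ahl10-1, where PIP1-2 and TIP1-2 averaged 906 ± 114 and 612 ± 30.0 RPKM in ahl10-1 stress, against 828 ± 126 and 935 ± 113 RPKM in ahl10-1 control. At the other end, TIP3-1, TIP3-2, NIP2-1, NIP3-1, NIP4-2 and NIP7-1 stayed below 3 RPKM in every library.

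**Figure D1:**
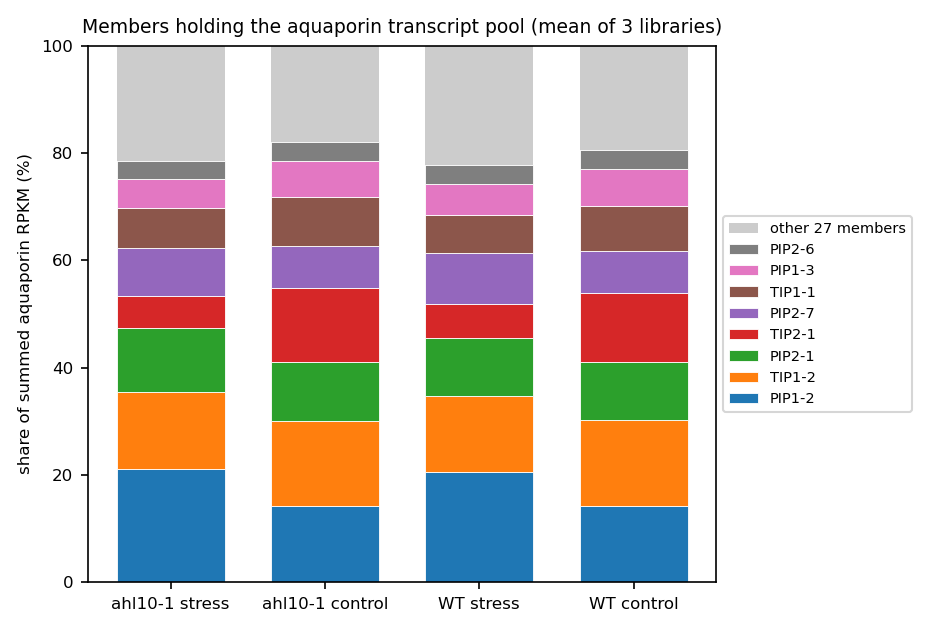
Share of the summed aquaporin RPKM (y axis, percent, mean of 3 libraries) held by the 8 most abundant members and by the other 27, in ahl10-1 stress, ahl10-1 control, WT stress and WT control (x axis). The 8 members held 78.6% of the pool in ahl10-1 stress, 82.0% in ahl10-1 control, 77.7% in WT stress and 80.6% in WT control, and the TIP2-1 layer is thinner in both stress groups while the PIP1-2 layer is thicker.

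The first question was how low water potential changed the channels of each subfamily. The sum of all aquaporin levels was lower in stress than in control in both genotypes, with no overlap between libraries. It was 3928, 4249 and 4683 RPKM in ahl10-1 stress against 5593, 5247 and 6700.5 RPKM in ahl10-1 control, and 3728, 3909 and 3817 RPKM in WT stress against 5112, 4944 and 5329.9 RPKM in WT control. TIPs accounted for most of the gap. Summed TIP levels averaged 1332 ± 97.1 RPKM in ahl10-1 stress and 2378 ± 319 in ahl10-1 control, and 1165 ± 63.2 in WT stress and 2018 ± 72.8 in WT control (SD, n = 3 each), which are ratios of 0.560 in ahl10-1 and 0.578 in WT. No stress library overlapped a control library for TIPs in either genotype.

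Summed PIP levels moved less. They averaged 2803 ± 289 RPKM in ahl10-1 stress and 3330.4 ± 449.6 in ahl10-1 control, a ratio of 0.842, and these libraries overlapped, although in each of the 3 same-numbered ahl10-1 pairs the stress library was the lower. In WT they averaged 2498 ± 36.5 RPKM in stress and 2963 ± 149 in control, a ratio of 0.843, without overlap. NIP sums were higher on average under stress, with 75.3 ± 6.74 RPKM in ahl10-1 stress and 59.8 ± 11.5 in ahl10-1 control, and 79.8 ± 2.77 in WT stress and 70.2 ± 15.2 in WT control, but stress and control libraries overlapped in both genotypes. The stress library had the higher NIP sum in 3 of 3 same-numbered ahl10-1 pairs, and the lower leaf marker sum in 3 of 3. In WT those counts were 2 of 3 for the NIP sum and 3 of 3 for the leaf marker sum. Deviations of same-numbered ahl10-1 libraries were correlated over all tested genes, while those of WT were not. Differently numbered libraries were not compared, so the numbers were not shown to mark pairs. SIP sums overlapped as well, with 76.1 ± 0.302 RPKM in ahl10-1 stress and 78.2 ± 2.73 in ahl10-1 control, and 74.9 ± 1.43 in WT stress and 78.1 ± 4.44 in WT control.

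**Figure D2:**
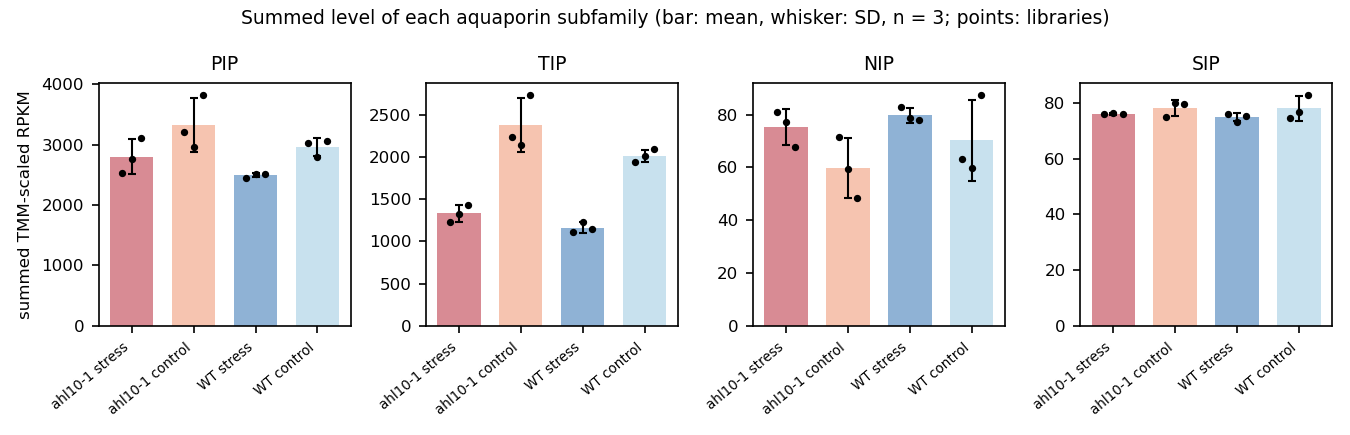
Summed TMM-scaled RPKM (y axis) of the 13 PIP, 10 TIP, 9 NIP and 3 SIP genes, 1 panel each with its own y axis from 0, in ahl10-1 stress, ahl10-1 control, WT stress and WT control (bars are means, whiskers SD, n = 3, and points single libraries). The TIP bars in stress, at 1332 and 1165 RPKM, stand well under those in control, at 2378 and 2018 RPKM, whereas the SIP bars all lie between 74.9 and 78.2 RPKM.

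As a share of the aquaporin pool, PIPs held more under stress, at 65.3% ± 0.952 in ahl10-1 stress against 56.9% ± 0.475 in ahl10-1 control and 65.4% ± 0.807 in WT stress against 57.8% ± 1.39 in WT control. TIPs held 31.1% ± 0.493 in ahl10-1 stress against 40.7% ± 0.472 in ahl10-1 control and 30.5% ± 0.957 in WT stress against 39.4% ± 1.35 in WT control. Within the pool, PIP1-2 took 21.1% ± 0.875 in ahl10-1 stress against 14.1% ± 0.500 in ahl10-1 control, and 20.6% ± 0.327 in WT stress against 14.2% ± 0.421 in WT control. TIP2-1 took 6.08% ± 0.320 in ahl10-1 stress against 13.6% ± 1.36 in ahl10-1 control, and 6.35% ± 0.520 in WT stress against 12.7% ± 0.175 in WT control. In RNA of whole seedlings, fewer cells of a type and less RNA per cell cannot be told apart.

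Gene by gene, the response of the family went in both directions. In ahl10-1, 10 of the 32 tested members (31.25%) were called, 4 higher and 6 lower by edgeR's quasi-likelihood test, where 27.8% of all tested genes were called. In WT, 12 of 32 (37.5%) were called, 5 higher and 7 lower, where 24.2% of all tested genes were called. By direction, 14.2% of all tested genes were called higher and 13.5% lower in ahl10-1, and 11.7% and 12.5% in WT. The median log2 fold change over the 32 members was -0.08 in ahl10-1 and -0.12 in WT, beside -0.000843 and -0.00158 over all tested genes. By subfamily, 4 of 13 PIPs, 4 of 8 tested TIPs, 2 of 8 tested NIPs and 0 of 3 SIPs were called in ahl10-1, and in WT 6 PIPs, 4 TIPs, 2 NIPs and 0 SIPs. The 10 members called in ahl10-1 were all called in WT with the same sign, which is 100% of the ahl10-1 list and 83.3% of the WT list. Over all tested genes, 4473 were shared, which is 71.3% of the ahl10-1 list and 81.7% of the WT list. The 2 comparisons share no library, but both come from 1 fit over all 12 libraries with a shared estimate of the spread. Their calls are therefore not independent.

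**Figure D3:**
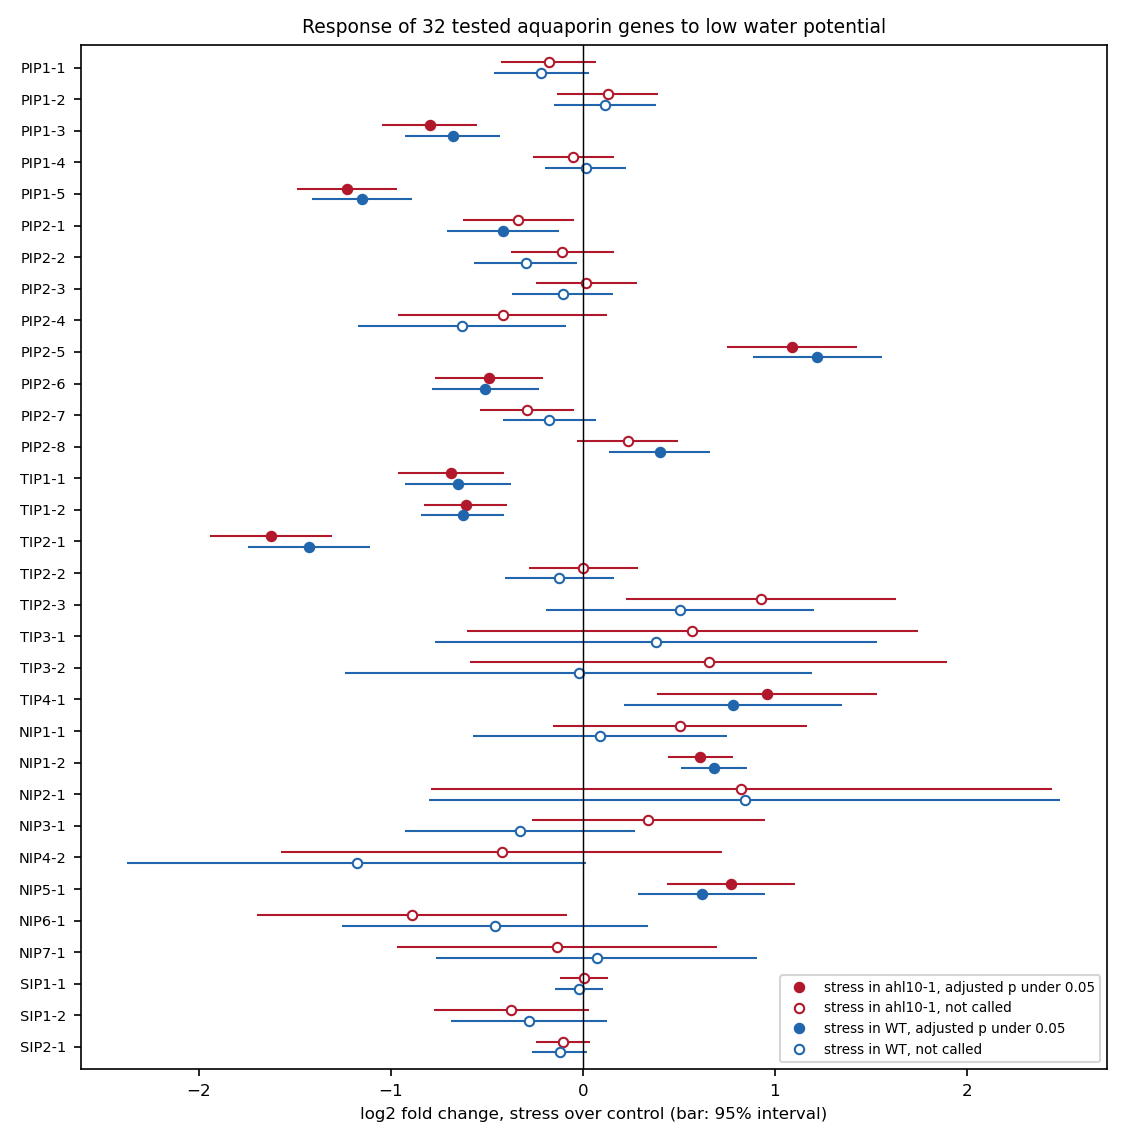
Log2 fold change of stress over control (x axis) for the 32 tested aquaporin genes (rows), in ahl10-1 (red, upper) and WT (blue, lower), with 95% intervals as bars and filled points for genes called at an adjusted p under 0.05. TIP2-1, PIP1-5, PIP1-3, TIP1-1 and TIP1-2 lie left of 0 and PIP2-5, TIP4-1, NIP5-1 and NIP1-2 right of 0 in both genotypes.

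Of the vacuolar channels, 3 abundant members fell and 1 scarce member rose. TIP2-1, also known as delta-TIP and able to pass ammonia and urea as well as water, had the largest fall of all called members in both genotypes. It had 248, 243 and 291 RPKM in ahl10-1 stress against 790.3, 633 and 981 RPKM in ahl10-1 control, and 216, 267 and 246 RPKM in WT stress against 655, 635 and 668 RPKM in WT control. Every stress library was below every control library of either genotype. Its level fell 3.08-fold in ahl10-1 and 2.69-fold in WT, with log2 fold changes of -1.62 (SE 0.15, adjusted p = 1.57e-05) and -1.43 (SE 0.15, adjusted p = 4.64e-05). Annotated genes overlap 8 members, namely TIP2-1, TIP3-1, TIP3-2, TIP5-1, NIP2-1, NIP6-1, SIP1-2 and SIP2-1, and part of the reads of each could belong to a neighbour because strand use in counting is unstated.

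TIP1-2, the most abundant vacuolar channel, had 589, 602 and 646 RPKM in ahl10-1 stress against 889.7, 851 and 1063 RPKM in ahl10-1 control, and 513, 536 and 559 RPKM in WT stress against 796, 814 and 872 RPKM in WT control. Stress and control libraries were apart in both genotypes, with log2 fold changes of -0.61 (SE 0.10, adjusted p = 0.000855) in ahl10-1 and -0.63 (SE 0.10, adjusted p = 0.000846) in WT. Its relative TIP1-1, also called gamma-TIP and a marker protein of the large central vacuole, also fell. TIP1-1 had 271, 339 and 363 RPKM in ahl10-1 stress against 459, 546 and 560.04 RPKM in ahl10-1 control, and 271, 299 and 243 RPKM in WT stress against 392, 461 and 419.8 RPKM in WT control. No libraries overlapped, and the log2 fold changes were -0.69 (SE 0.13, adjusted p = 0.00195) in ahl10-1 and -0.65 (SE 0.13, adjusted p = 0.00322) in WT.

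TIP4-1, which passes water and urea in heterologous cells, was higher under stress. It had 20.004, 17.8 and 18.5 RPKM in ahl10-1 stress against 8.21, 10.9 and 9.89 RPKM in ahl10-1 control, and 21.8, 17.9 and 16.0 RPKM in WT stress against 7.55, 8.19 and 16.7 RPKM in WT control. The ahl10-1 libraries did not overlap, whereas WT control replicate 3 reached the level of the WT stress libraries. The log2 fold changes were 0.96 (SE 0.26, adjusted p = 0.0185) in ahl10-1 and 0.78 (SE 0.26, adjusted p = 0.0483) in WT. Without WT control replicate 3 the WT value was 1.24 (adjusted p = 0.000241), and without any other single WT or ahl10-1 library the WT call was lost (adjusted p from 0.0577 to 0.156). It was also lost with no filter on low counts (adjusted p = 0.0685), with the WT libraries fitted alone (adjusted p = 0.162) and with the replicate block (adjusted p = 0.0551). In ahl10-1 the call was lost without stress replicate 1, control replicate 1 or control replicate 3 (adjusted p from 0.0527 to 0.0695).

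WT control replicate 3 also had the highest summed level of 13 root marker genes among the WT control libraries, which were at 108, 97.9 and 164 RPKM. Those sums were 134 to 154 RPKM in ahl10-1 stress, 114 to 133 in ahl10-1 control and 134 to 148 in WT stress. Of the 13 root markers, which span the endodermis, root hairs and stele, 3 were called higher and 2 lower in ahl10-1, and 3 higher and 1 lower in WT. That is 38.5% called in ahl10-1 and 30.8% in WT, beside 27.8% and 24.2% of all tested genes. The higher ones in both were EXPA7, EXPA18 and MYB36. The list went both ways, but in each genotype 10 log2 fold changes were positive and 3 negative. They ran from -1.08 to 1.84 in ahl10-1 (median 0.40) and from -0.91 to 1.52 in WT (median 0.38). The root marker sums of stress and control did not overlap in ahl10-1, where they were adjacent, and overlapped in WT. None of the 13 was at 0 in any library, and the part of root share in the TIP4-1, NIP1-1 and NIP5-1 values was not tested.

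The other TIPs were not called in either genotype. TIP2-2 averaged 104 ± 10.4 RPKM in ahl10-1 stress and 104 ± 14.5 in ahl10-1 control, and 86.9 ± 13.5 in WT stress and 94.5 ± 9.44 in WT control (SD, n = 3 each), and its 95% interval for the WT fold change was -0.41 to 0.16 on the log2 scale. TIP2-3 had 12.1, 8.93 and 8.26 RPKM in ahl10-1 stress against 4.22, 5.45 and 5.73 RPKM in ahl10-1 control, without overlap, and its log2 fold change of 0.93 (SE 0.32, adjusted p = 0.0507) missed the threshold. It was past the threshold under 13 of the 24 alternatives run for ahl10-1, among them the ahl10-1 libraries alone with the replicate number as a block (adjusted p = 0.0190). In WT, TIP2-3 had 6.98, 11.3 and 4.57 RPKM in stress against 5.27, 3.68 and 7.16 RPKM in control, which overlapped. The seed vacuole channels TIP3-1 and TIP3-2 had from 20 to 97 and from 19 to 164 reads per library, and their intervals spanned 0 widely. Of 5 seed storage and oil body markers, the 3 that could be tested were not called, with summed levels from 0.366 to 2.51 RPKM over the 12 libraries.

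**Figure D4:**
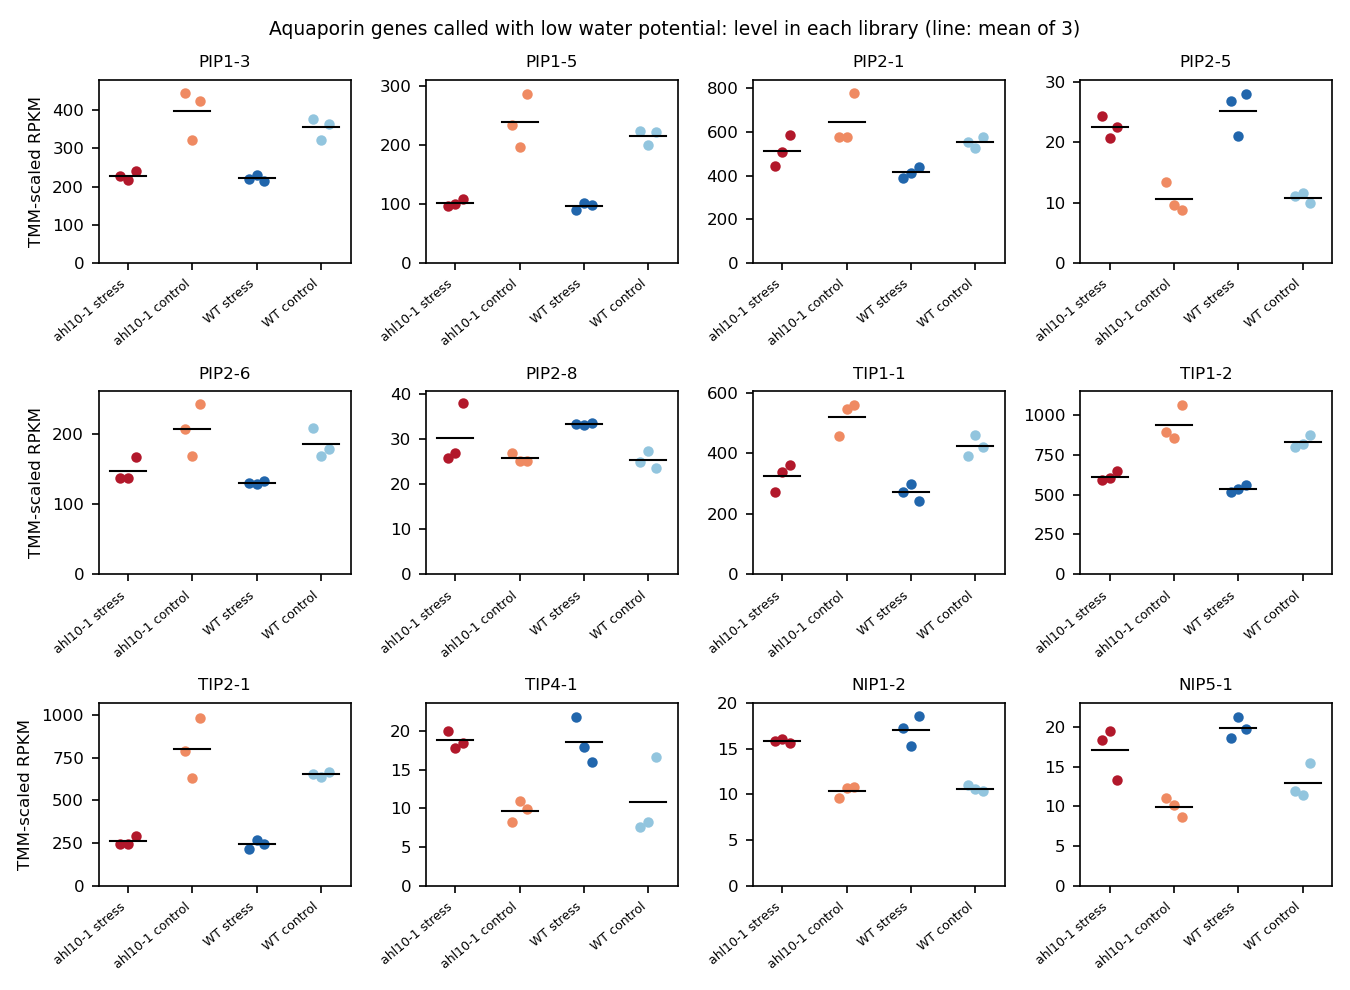
TMM-scaled RPKM (y axes, from 0, a scale for each panel) of the 12 aquaporin genes called in at least 1 genotype, in ahl10-1 stress, ahl10-1 control, WT stress and WT control (points are libraries, lines are means of 3). TIP2-1 and PIP1-5 show the widest gap downwards and PIP2-5 the widest gap upwards, and 1 WT control library of TIP4-1, at 16.7 RPKM, sits with the stress libraries.

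Among the plasma membrane channels, PIP1 members were lower or not called, while PIP2 members went both ways. PIP1-5 had the largest fall, with 97.0, 100.3 and 109 RPKM in ahl10-1 stress against 234, 196 and 286 RPKM in ahl10-1 control, and 90.3, 102 and 98.4 RPKM in WT stress against 223, 199.8 and 223 RPKM in WT control. Every stress library was under every control library, by 2.34-fold on average in ahl10-1 and 2.22-fold in WT, with log2 fold changes of -1.22 (SE 0.12, adjusted p = 2.73e-05) and -1.15 (SE 0.12, adjusted p = 5.08e-05). PIP1-3 had 229, 218 and 239.8 RPKM in ahl10-1 stress against 445, 322 and 425 RPKM in ahl10-1 control, and 220.4, 231 and 215 RPKM in WT stress against 378, 323 and 365 RPKM in WT control. Again no libraries overlapped, and the log2 fold changes were -0.80 (SE 0.11, adjusted p = 0.000397) in ahl10-1 and -0.68 (SE 0.11, adjusted p = 0.00131) in WT.

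PIP1-2, the most abundant member under stress and a contributor to the hydraulic conductance of roots and rosettes, was not called. It had 789, 913 and 1016 RPKM in ahl10-1 stress against 759, 751 and 973 RPKM in ahl10-1 control, and 761, 801 and 802 RPKM in WT stress against 745, 703 and 733 RPKM in WT control. The 95% intervals of its log2 fold change were -0.13 to 0.39 in ahl10-1 and -0.15 to 0.38 in WT, and the values found for PIP1-3 lie outside both. The 3 WT stress libraries all lay above the 3 WT control libraries, while those of ahl10-1 overlapped. PIP1-1 and PIP1-4 were not called either. The log2 fold change of PIP1-1 was -0.18 (95% interval -0.43 to 0.07) in ahl10-1 and -0.21 (-0.46 to 0.03) in WT, and that of PIP1-4 was -0.05 (-0.26 to 0.16) in ahl10-1 and 0.02 (-0.19 to 0.22) in WT.

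PIP2-5, an isoform known from earlier leaf work to be induced by drought, was the one PIP called higher in both genotypes. It had 24.4, 20.8 and 22.6 RPKM in ahl10-1 stress against 13.5, 9.65 and 8.73 RPKM in ahl10-1 control, and 26.9, 21.0 and 27.9 RPKM in WT stress against 11.0, 11.5 and 9.97 RPKM in WT control. All stress libraries exceeded all control libraries. Its level was 2.13-fold and 2.33-fold higher, with log2 fold changes of 1.09 (SE 0.15, adjusted p = 0.000397) in ahl10-1 and 1.22 (SE 0.15, adjusted p = 0.000211) in WT. Even so, PIP2-5 made up 0.531% of the aquaporin pool in ahl10-1 stress and 0.664% in WT stress.

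PIP2-6, a channel of rosette veins, was lower in both genotypes. It had 137, 138 and 168 RPKM in ahl10-1 stress against 208, 169.9 and 243 RPKM in ahl10-1 control, and 130.4, 129 and 133 RPKM in WT stress against 209, 169 and 179 RPKM in WT control. The libraries did not overlap, and the log2 fold changes were -0.49 (SE 0.13, adjusted p = 0.0143) in ahl10-1 and -0.51 (SE 0.13, adjusted p = 0.0137) in WT. The WT call was lost without WT control replicate 1 (-0.41, adjusted p = 0.0591). The ahl10-1 call was lost without stress replicate 1, stress replicate 2 or control replicate 3 (adjusted p from 0.0563 to 0.0655), and with the ahl10-1 libraries fitted alone (adjusted p = 0.0523).

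PIP2-1 conducts water in roots and guard cells, where the kinase OST1 phosphorylates it. It had 443, 506 and 586 RPKM in ahl10-1 stress against 579, 579 and 779 RPKM in ahl10-1 control, and 389, 413 and 441 RPKM in WT stress against 556, 525 and 578 RPKM in WT control. Libraries overlapped in ahl10-1 at a single point, stress replicate 3, and did not overlap in WT. The log2 fold change was -0.33 (SE 0.13, adjusted p = 0.0815) in ahl10-1, not called, and -0.42 (SE 0.13, adjusted p = 0.0403) in WT, called lower. With the replicate number as a block, the ahl10-1 value was -0.33 and was called (adjusted p = 0.0274). The WT call was lost without any single WT library and without ahl10-1 stress replicate 2 (adjusted p from 0.0572 to 0.136). The difference between the genotypes in this response was 0.08 (95% interval -0.33 to 0.49).

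PIP2-8 was called higher in WT alone. It had 25.8, 26.9 and 37.9 RPKM in ahl10-1 stress against 26.8, 25.1 and 25.1 RPKM in ahl10-1 control, and 33.4, 33.2 and 33.5 RPKM in WT stress against 24.9, 27.4 and 23.5 RPKM in WT control. The log2 fold changes were 0.23 (SE 0.12, adjusted p = 0.175) in ahl10-1, where libraries overlapped, and 0.40 (SE 0.12, adjusted p = 0.0316) in WT, where they did not. Stress replicate 3 stood far above the other ahl10-1 libraries, and without it the ahl10-1 value was 0.03. The interaction was -0.17 (95% interval -0.54 to 0.21), ranging from -0.38 to -0.07 with 1 library left out, and the responses were not shown to differ. The WT call was lost without any WT stress library and without WT control replicates 1 or 3 (adjusted p from 0.0697 to 0.0925).

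The remaining PIP2 members were not called. PIP2-7, the sixth most abundant channel in control, averaged 379.8 ± 48.7 RPKM in ahl10-1 stress and 465 ± 59.9 in ahl10-1 control, and 361 ± 14.1 in WT stress and 407 ± 19.4 in WT control (SD, n = 3 each). Libraries overlapped in ahl10-1 and not in WT, and the log2 fold changes were -0.29 (SE 0.11, adjusted p = 0.0730) in ahl10-1 and -0.17 (SE 0.11, adjusted p = 0.286) in WT. With the replicate block the ahl10-1 value of PIP2-7 was -0.29 and was called (adjusted p = 0.0329). The root channel PIP2-4 had 11.9, 10.9 and 7.89 RPKM in ahl10-1 stress against 13.6, 14.1 and 13.4 RPKM in ahl10-1 control, and 10.5, 11.8 and 6.49 RPKM in WT stress against 10.9, 13.8 and 19.8 RPKM in WT control. Here libraries overlapped in WT and not in ahl10-1, and the log2 fold changes were -0.42 (SE 0.25, adjusted p = 0.235) in ahl10-1 and -0.63 (SE 0.25, adjusted p = 0.0884) in WT. In the ahl10-1 libraries alone with the block, PIP2-4 was called, at -0.44 (adjusted p = 0.0324).

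Among the solute channels, NIP5-1 and NIP1-2 were higher under stress. NIP5-1, the boric acid channel of root uptake, had 18.3, 19.5 and 13.3 RPKM in ahl10-1 stress against 11.0, 10.2 and 8.72 RPKM in ahl10-1 control, and 18.6, 21.3 and 19.7 RPKM in WT stress against 11.9, 11.4 and 15.5 RPKM in WT control. No libraries overlapped within a genotype, and the log2 fold changes were 0.77 (SE 0.15, adjusted p = 0.00314) in ahl10-1 and 0.62 (SE 0.15, adjusted p = 0.0118) in WT. NIP1-2, which is linked to aluminium malate transport in roots, had 15.9, 16.1 and 15.7 RPKM in ahl10-1 stress against 9.60, 10.7 and 10.9 RPKM in ahl10-1 control, and 17.3, 15.3 and 18.6 RPKM in WT stress against 11.0, 10.6 and 10.4 RPKM in WT control. Its libraries did not overlap, and its log2 fold changes were 0.61 (SE 0.08, adjusted p = 0.000181) in ahl10-1 and 0.68 (SE 0.08, adjusted p = 0.000105) in WT.

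NIP1-1, a channel that also admits arsenite, was the most abundant NIP and was not called. It had 36.9, 31.4 and 27.2 RPKM in ahl10-1 stress against 23.4, 28.1 and 15.7 RPKM in ahl10-1 control, and 34.0, 26.1 and 23.7 RPKM in WT stress against 19.3, 19.99 and 39.5 RPKM in WT control. WT control replicate 3 was its highest library of all 12, and stress and control overlapped in both genotypes. The log2 fold changes were 0.51 (SE 0.30, adjusted p = 0.236) in ahl10-1 and 0.09 (SE 0.30, adjusted p = 0.860) in WT, and the WT value was 0.51 (adjusted p = 0.146) without that library. In the ahl10-1 libraries alone with the replicate block, NIP1-1 was called, at 0.53 (adjusted p = 0.0299).

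NIP6-1, the boric acid channel of shoot nodes, had 7.16, 7.23 and 9.42 RPKM in ahl10-1 stress against 25.3, 7.41 and 11.2 RPKM in ahl10-1 control, and 10.8, 13.8 and 13.7 RPKM in WT stress against 18.2, 15.2 and 19.0 RPKM in WT control. A single library, ahl10-1 control replicate 1, stood far above the other ahl10-1 libraries. The log2 fold changes were -0.89 (SE 0.36, adjusted p = 0.0968) in ahl10-1 and -0.46 (SE 0.36, adjusted p = 0.391) in WT and neither was called. Without ahl10-1 control replicate 1 the ahl10-1 value was -0.23 (edgeR adjusted p = 0.403). NIP2-1, NIP3-1, NIP4-2 and NIP7-1 had from 0 to 140 reads per library and were not called.

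No SIP was called. SIP1-1, a water channel of the endoplasmic reticulum, had 50.2, 51.1 and 52.1 RPKM in ahl10-1 stress against 47.6, 51.7 and 53.3 RPKM in ahl10-1 control, and 49.7, 48.6 and 49.5 RPKM in WT stress against 48.8, 48.3 and 52.5 RPKM in WT control. All 12 libraries lay between 47.6 and 53.3 RPKM, and the 95% intervals of the log2 fold change were -0.12 to 0.13 in ahl10-1 and -0.14 to 0.11 in WT. SIP2-1 had 23.5, 22.4 and 21.8 RPKM in ahl10-1 stress against 24.7, 24.4 and 23.7 RPKM in ahl10-1 control, and 24.1, 22.5 and 23.9 RPKM in WT stress against 23.5, 25.6 and 27.6 RPKM in WT control. Its log2 fold changes were -0.10 (SE 0.07, adjusted p = 0.265) in ahl10-1 and -0.12 (SE 0.07, adjusted p = 0.204) in WT. SIP1-2, with 151 to 302 reads per library, was at -0.37 (95% interval -0.78 to 0.03) in ahl10-1 and -0.28 (-0.69 to 0.13) in WT.

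Promoters were read next, because members moved in opposite directions. The 250 bases upstream of the annotated start were taken from RefSeq TAIR10.1 for all 35 members and for 27443 protein-coding genes, and both strands were searched for CCGAC, the core of the dehydration response element, and ACGTG, the core of the abscisic acid response element. The window of PIP2-5 (chr3:20301509-20301758, plus strand), the largest rise, and that of TIP2-1 (chr3:5505110-5505359, plus strand), the largest fall, are printed with matches in capitals.
PIP2-5: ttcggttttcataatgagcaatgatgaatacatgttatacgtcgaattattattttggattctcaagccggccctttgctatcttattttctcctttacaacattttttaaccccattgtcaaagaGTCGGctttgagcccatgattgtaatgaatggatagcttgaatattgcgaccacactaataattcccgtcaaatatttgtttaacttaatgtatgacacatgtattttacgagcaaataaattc
TIP2-1: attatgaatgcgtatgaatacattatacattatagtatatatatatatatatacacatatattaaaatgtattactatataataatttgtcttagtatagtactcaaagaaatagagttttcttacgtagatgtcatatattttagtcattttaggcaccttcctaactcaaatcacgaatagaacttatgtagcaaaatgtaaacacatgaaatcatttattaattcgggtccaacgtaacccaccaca
The PIP2-5 window holds 1 CCGAC match, on its minus strand, and the TIP2-1 window holds no match to either core. CCGAC was present in 4 of the 35 aquaporin windows (11.4%), beside 11.97% of all windows. These 4 belonged to PIP2-5 and to PIP1-3, TIP1-1 and TIP1-2, which were called lower in both genotypes, so the core accompanied calls of both signs. CCGAC was thus in 1 of the 4 members called higher in both genotypes (25%) and in 3 of the 6 called lower (50%). These few windows were not tested against the background. All 4 matches, which read GTCGG in the direction of the gene, are printed with 20 bases on either side to show how far the surroundings differ. In these stretches only the CCGAC match is in capitals.
PIP2-5 (chr3:20301615-20301659, plus strand): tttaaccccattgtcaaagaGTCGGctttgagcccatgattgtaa
PIP1-3 (chr1:227653-227697, minus strand): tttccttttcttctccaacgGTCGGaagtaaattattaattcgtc
TIP1-1 (chr2:15445223-15445267, plus strand): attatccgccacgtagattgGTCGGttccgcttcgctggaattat
TIP1-2 (chr3:9724003-9724047, minus strand): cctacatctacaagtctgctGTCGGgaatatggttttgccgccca
The matches start 124, 134, 51 and 123 bases upstream in that order. ACGTG was present in 4 of 35 aquaporin windows (11.4%), beside 22.9% of all windows, in 0 of the 4 members called higher in both genotypes and in 1 of the 6 called lower. That member was TIP1-1, whose ACGTG match starts 62 bases upstream and lies, in lower case, in the stretch printed for its CCGAC match. A match here is a string of letters in a window and not a bound site.

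The second question was whether the family differed between ahl10-1 and WT. With ahl10-1 set against WT, 0 of the 32 tested aquaporins were called in edgeR's quasi-likelihood test under stress, where 0.0265% of all tested genes were called (0.00885% higher and 0.0177% lower). In control 0 were called, where 0.0177% of all tested genes were (0.00885% higher and 0.00885% lower). At an unadjusted p under 0.05 in edgeR's test there was 1 under stress and there were 2 in control. Those counts are near the shares over all tested genes, 3.75% under stress and 5.34% in control. DESeq2 called 0 aquaporins in both comparisons. The interaction, which asks whether the response to stress differed between the genotypes, gave 0 calls among aquaporins (0% of all tested genes). It gave 0 at an unadjusted p under 0.05, where 1.42% of all tested genes were, and 0 by DESeq2. A call missed at 3 libraries a group does not show that levels were alike, so the intervals matter here.

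**Figure D5:**
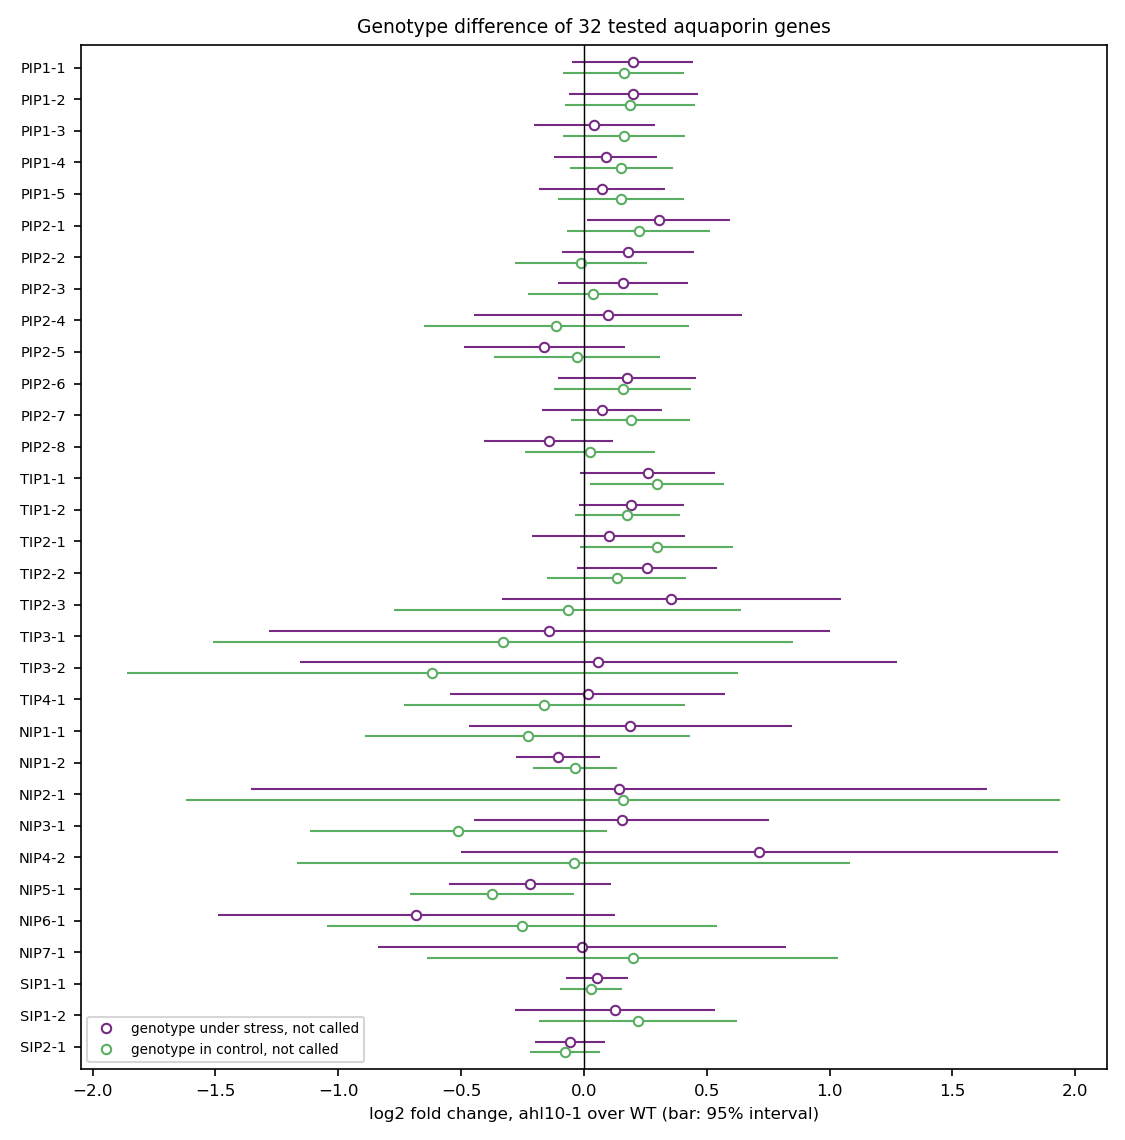
Log2 fold change of ahl10-1 over WT (x axis) for the 32 tested aquaporin genes (rows), under stress (purple, upper) and in control (green, lower), with 95% intervals as bars. All points are open because no member was called, and the intervals of the abundant PIPs and TIPs are narrow while those of scarce members such as NIP2-1 and NIP4-2 are wide.

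The log2 fold change of ahl10-1 over WT was positive for 24 of 32 members under stress (median 0.10) and for 18 of 32 in control (median 0.03), beside medians of 0.00523 and -0.00469 over all tested genes. Among PIPs, 11 of 13 were positive under stress and 10 of 13 in control. Summed PIP levels averaged 2803 ± 289 RPKM in ahl10-1 stress and 2498 ± 36.5 in WT stress, without overlap, and 3330.4 ± 449.6 in ahl10-1 control and 2963 ± 149 in WT control, with overlap. Summed TIP levels averaged 1332 ± 97.1 RPKM in ahl10-1 stress and 1165 ± 63.2 in WT stress, without overlap, though the lowest ahl10-1 stress library (1237 RPKM) and the highest WT stress library (1236 RPKM) were adjacent, and 2378 ± 319 in ahl10-1 control and 2018 ± 72.8 in WT control, without overlap. ahl10-1 control replicate 3, the library with the lowest TMM factor (0.886), was the highest of the 6 control libraries for 14 of the 32 members, and WT control replicate 3 for 9. On the deposited RPKM, which has no TMM factor, ahl10-1 control replicate 3 was highest for 10 and WT control replicate 3 for 12. Leaf and guard cell markers lay on the same side under stress, with 6 of 6 leaf markers positive (median 0.17) and 5 of 5 guard cell markers positive (median 0.11), none called. In control 3 of 6 leaf markers (median -0.01) and 4 of 5 guard cell markers (median 0.05) were positive, and the part of these markers in the PIP and TIP values was not tested.

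The unadjusted p was under 0.05 for PIP2-1 under stress and for TIP1-1 and NIP5-1 in control. PIP2-1 was at 0.30 under stress (edgeR unadjusted p = 0.0413, adjusted p = 0.999), its 3 ahl10-1 stress libraries all above the 3 WT stress libraries, and at 0.18 without ahl10-1 stress replicate 3. TIP1-1 was at 0.30 in control (edgeR unadjusted p = 0.0360, adjusted p = 0.854), with 1 ahl10-1 control library inside the WT control range. NIP5-1 was at -0.37 in control (edgeR unadjusted p = 0.0313, adjusted p = 0.854), its ahl10-1 control libraries all below the WT control libraries, and at -0.22 without WT control replicate 3. For the strongest stress responders the 95% intervals bound the difference between genotypes. For TIP2-1 they were -0.21 to 0.41 under stress and -0.02 to 0.61 in control, and for PIP2-5 they were -0.49 to 0.17 under stress and -0.36 to 0.31 in control. Differences between the genotypes in response were -0.20 (95% interval -0.64 to 0.25) for TIP2-1 and -0.13 (-0.61 to 0.34) for PIP2-5.

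The authors' deposited tables cover the same comparisons apart from stress in ahl10-1 and the interaction. In the authors' deposited table of WT stress against WT control, 14 aquaporins had an adjusted p under 0.05, 4 higher and 10 lower, of which 11 were also called here. The additional ones there were PIP2-4, PIP2-7 and NIP6-1, all lower, and TIP4-1 was called here and not there. In the authors' deposited table of ahl10-1 stress against WT stress, NIP6-1 alone was past the threshold, with a log2 fold change of -0.41 (adjusted p = 0.00455). Here NIP6-1, named after its values were seen, was at -0.68 (SE 0.36, adjusted p = 0.999), with no overlap between the 3 ahl10-1 stress and the 3 WT stress libraries. The authors' deposited table of ahl10-1 control against WT control had 0 aquaporins past the threshold.

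Genes that act on aquaporins after transcription were read beside them. Of 14 genes for PIP trafficking, phosphorylation or degradation, 3 were called higher and 1 lower in each genotype. That is 28.6% called in each, close to the 27.8% in ahl10-1 and 24.2% in WT over all tested genes. TSPO, a membrane protein that leads PIP2-7 to autophagic breakdown in Arabidopsis, had 10.4, 6.66 and 4.65 RPKM in ahl10-1 stress against 1.18, 0.337 and 0.962 RPKM in ahl10-1 control, and 6.92, 8.04 and 4.11 RPKM in WT stress against 0.979, 1.06 and 1.21 RPKM in WT control. Its libraries did not overlap, and its log2 fold changes were 3.12 (SE 0.43, adjusted p = 0.000372) in ahl10-1 and 2.55 (SE 0.42, adjusted p = 0.00127) in WT. OST1, the abscisic acid signalling kinase, rose by 0.40 in ahl10-1 and 0.45 in WT on the log2 scale (adjusted p = 0.00920 and 0.00584). UBC32, a ubiquitin-conjugating enzyme of the endoplasmic reticulum, rose by 0.31 in ahl10-1 and 0.24 in WT (adjusted p = 0.00744 and 0.0341). The lower gene was RMA2, a ubiquitin ligase, in ahl10-1 (-0.50, adjusted p = 0.0183) and SYP121, a syntaxin that delivers PIPs to the plasma membrane, in WT (-0.88, adjusted p = 0.0182). SYP121 was at -0.40 in ahl10-1 and RMA2 at -0.07 in WT, neither called.

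In root boron transport the exporter BOR1 works together with the boric acid channel NIP5-1, so the BOR family was read beside the NIPs. Of 7 BOR genes 6 could be tested, and 3 were called higher in ahl10-1 and 1 in WT, with none lower, where 14.2% and 11.7% of all tested genes were called higher. The WT count of 1 in 6 (16.7%) is near that background. BOR5 had 3.52, 4.81 and 5.39 RPKM in ahl10-1 stress against 1.103, 2.34 and 2.68 RPKM in ahl10-1 control, and 3.38, 4.13 and 4.15 RPKM in WT stress against 1.52, 2.09 and 1.73 RPKM in WT control, and its log2 fold changes were 1.17 (SE 0.28, adjusted p = 0.00882) in ahl10-1 and 1.13 (SE 0.28, adjusted p = 0.0123) in WT. BOR2 and BOR4 were called in ahl10-1, at 0.79 and 0.68, and stood at 0.48 and 0.17 in WT. BOR1, the xylem loading exporter, was not called, at -0.43 in ahl10-1 and 0.03 in WT.

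Cell type markers were followed because channel genes differ between tissues. Of 6 leaf markers, 0 were called in ahl10-1 (also 0 at an unadjusted p under 0.05 in edgeR's test) and 2 were called lower in WT (LHCB1.1 and LHCB2.1), and their summed levels overlapped between stress and control in ahl10-1, with 23776 to 31588 RPKM in stress and 25619 to 37482 in control. In WT those sums were 23415 to 24830.3 RPKM in stress and 26364 to 31777 in control. All 6 leaf markers had negative log2 fold changes in both genotypes, with medians of -0.15 in ahl10-1 and -0.31 in WT. Of 5 guard cell markers, KAT1, MYB60 and SCRM2 were called lower in both genotypes (60% of the 5). Over all tested genes, 13.5% were called lower in ahl10-1 and 12.5% in WT. The summed guard cell marker level was 36.5 to 46.1 RPKM in ahl10-1 stress and 53.0 to 62.5 in ahl10-1 control. In WT it was 37.9 to 39.4 in stress and 52.4 to 58.2 in control. No leaf or guard cell marker was at 0 in any library, and their part in the falls of PIPs and TIPs was not tested.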

How the data were processed

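Whole-seedling poly(A) RNA was sequenced in 12 libraries, 3 per group. Per the submitters' processing notes, CASAVA, bcl2fastq 1.8.4, Bowtie2, DESeq2 and the build TAIR10 were used. The counting program, its annotation and its use of strand are not given in the sources used here, although the kit is strand-specific per the labels' protocols. The deposited per-gene tables hold estimated counts (expected counts, from 3.98% to 4.56% of genes not whole), a multi-mapped share as a fraction, and RPKM, per the file headers. The authors' deposited comparison tables hold log2 fold changes, p-values and scores (mean scaled counts and test statistics).

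Expected counts were rounded and tested with edgeR 4.0.16 (R 4.3.3), using TMM scaling (factors from 0.886 to 1.06), filterByExpr (minimum count 10, total 15), a robust quasi-likelihood fit of the 4 groups (8 residual degrees of freedom), and Benjamini-Hochberg adjustment over 22604 genes. Reads from 1 to 9 per gene were even in 75.9% of cases, against 50.5% of those from 100 to 999, so pairs may be counted as 2 reads and counting error is then larger than the reads show. RPKM was recomputed from counts, TMM-scaled totals and the deposited gene length. Subfamily sums had no test. The edgeR, DESeq2 and limma fits were run on simulated counts with known fold changes in ahl10-1 stress. The sums and the sequence steps were not tested in that way. Coordinates and sequences come from RefSeq TAIR10.1, where all 35 members matched by locus. The members and lists were chosen with earlier results of these data known.

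Named with every library's value are members called in any comparison and the 2 most abundant of each subfamily. PIP2-2 and PIP2-3 are given as a near-identical pair. Other members given with values, namely PIP1-1, PIP1-4, PIP2-4, PIP2-7, TIP2-2, TIP2-3, NIP6-1 and SIP1-2, were chosen after their values were seen. Near-identical members were found by coding rather than protein identity, over 90%. Same-numbered libraries deviated together in ahl10-1 stress and control (correlations 0.278, 0.214 and 0.336) and not in WT stress and control (-0.048, -0.00756 and -0.0115). Between ahl10-1 control and WT control the correlations were 0.219, 0.322 and -0.245, and between the stress groups 0.0758, 0.0633 and 0.193. Differently numbered libraries were not compared. What a replicate number stands for is not stated. Alternatives were RLE and upper quartile scaling, no filter or 1 CPM in 3 libraries, DESeq2 1.42.0, limma 3.58.1 on log2(RPKM + 1) and log2(RPKM + 0.1), the compared groups alone, the replicate block, removal of multi-mapped reads, each library left out, and, added after seeing the data, halved reads and the ahl10-1 libraries alone with the block.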

Additional observations from a re-analysis of the deposited data

How the results depend on the processing

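Stress calls among the 32 tested aquaporins numbered from 8 to 15 in ahl10-1, beside 10, and from 9 to 13 in WT, beside 12, over all alternatives run. No result changed its sign while called, and genotype and interaction calls stayed at 0 under every alternative run. Leaving out 1 library at a time gave from 8 to 12 in ahl10-1 and from 9 to 11 in WT. DESeq2 called 14 in ahl10-1, adding PIP2-1, PIP2-7, TIP2-3 and NIP6-1, and 13 in WT, adding PIP2-4. Halved reads gave 11 in ahl10-1 and 12 in WT. PIP1-3, PIP1-5, PIP2-5, TIP1-1, TIP1-2, TIP2-1, NIP1-2 and NIP5-1 were called in both genotypes under every alternative run.

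With the replicate block, ahl10-1 had 12 calls, gaining PIP2-1 and PIP2-7, and WT had 11, losing TIP4-1 (0.83, adjusted p = 0.0551). The ahl10-1 libraries alone with the block, which treats same-numbered libraries as pairs, gave 15 calls, gaining PIP2-1 (adjusted p = 0.0185), PIP2-4, PIP2-7, TIP2-3 and NIP1-1. The block changed no other aquaporin call.

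The sum of deposited RPKM, which has no TMM factor, gave a log2 ratio of 0.038 for summed SIP levels under stress in ahl10-1, beside -0.039, and of -0.031 for ahl10-1 over WT under stress, beside 0.022, so SIP sums have no settled direction. Across all genes, stress calls in WT were 3567 without WT stress replicate 1, beside 5478. Genotype calls in control were 26 with DESeq2, 7 with the compared groups alone and 12 without ahl10-1 control replicate 1, beside 4. Under stress they were 33 with DESeq2, beside 6, and the interaction had 1, beside 0. Depth limits TIP1-3, TIP5-1, NIP4-1 and NIP2-1, which had at most 14 reads in any library.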

Other observations

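The boric acid channels NIP5-1 and NIP6-1 and the exporter BOR1 had negative log2 fold changes of ahl10-1 over WT under stress and in control, and none of the 3 was called. They were picked out after their values were seen. Under stress BOR1 had 11.8, 12.7 and 14.4 RPKM in ahl10-1 and 17.1, 18.9 and 18.9 RPKM in WT, without overlap, a log2 fold change of -0.50 (SE 0.16, edgeR unadjusted p = 0.0110, adjusted p = 0.999). NIP6-1 was at -0.68 (SE 0.36) under stress and -0.25 (SE 0.36) in control. Without ahl10-1 control replicate 1, the highest of the ahl10-1 libraries, the control value of NIP6-1 was -0.91 (edgeR adjusted p = 0.159). NIP5-1 was at -0.22 (SE 0.15) under stress and -0.37 (SE 0.15) in control. Without ahl10-1 stress replicate 3 the NIP5-1 value under stress was -0.08, and without WT control replicate 3 its control value was -0.22. BOR1 in control was at -0.04 (SE 0.16), and the other exporters tested went both ways, with BOR2 at 0.00, BOR4 at 0.29 and BOR5 at 0.23 under stress.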
